A study of Mus musculus with 8 samples.

Results

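The genes of the proteasome were measured by RNA sequencing of heart tissue, in 4 db/db and 4 db/m libraries from male mice aged 24 weeks. Both groups were on the C57BLKS/J strain, and both carry the db allele of the leptin receptor gene, db/db mice in the homozygous and db/m mice in the heterozygous state. A db/db mouse becomes obese and diabetic, and db/m is its usual lean comparison. The db lesion is present in every cell of the animal, so a difference in the heart cannot be assigned to the loss of the receptor in the heart itself. The labels do not say that the 4 libraries of a group came from 4 separate animals, so p-values measure the spread between these libraries. The samples are bulk tissue, in which fewer cells of a type and less RNA per cell cannot be told apart. The labels name no purpose for these genes, and the comparison of db/db with db/m hearts is the one the design gives.

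The members are the protein-coding genes whose symbol begins with Psma, Psmb, Psmc, Psmd or Psme. The rule took 45 of the 55573 genes in the count table, out of 49 symbols with such a start. The other 4 were the pseudogenes Psmb5-ps, Psmb6-ps, Psmb6-ps2 and Psmb7-ps2. By role the members fall into 8 genes of the 20S alpha ring, 4 structural and 3 constitutive catalytic genes of the 20S beta ring, 3 immunoproteasome catalytic genes and 1 thymoproteasome gene. The 19S particle adds 6 ATPases, 3 other base subunits and 8 lid subunits. A further 3 members are chaperones of 19S base assembly and 5 are activators that dock on the 20S core. The last member, Psmc3ip, shares the start of the symbol but is a meiotic recombination cofactor named for binding Psmc3, and is no subunit. Of the 45 members, 44 passed the filter on low counts and were tested. Psmb11, the catalytic subunit of the thymus, had 0 counts in all 8 libraries, which allows a level of up to 0.124 to 0.162 CPM (counts per 1000000 counts of the scaled library) per library.

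The proteasome is the protease that degrades proteins tagged with ubiquitin. Its 20S core is a barrel: outer rings of alpha subunits gate the entry, and inner rings of beta subunits hold the active sites, on Psmb5, Psmb6 and Psmb7. The 19S particle caps the barrel, with a lid that recognises and removes ubiquitin and a base whose ATPases unfold the substrate and thread it in. Under interferon gamma, Psmb8, Psmb9 and Psmb10 take the places of the constitutive catalytic subunits and form the immunoproteasome, which favours peptides that fit MHC class I molecules. In heart muscle the proteasome turns over sarcomere proteins and clears damaged ones. Among the libraries, db/m replicate 3 stood apart by low levels of these genes, and db/m replicates 1 and 3 both held adipocyte and atrial transcripts, so results are given with and without them.

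No proteasome gene differed between db/db and db/m hearts at an adjusted p under 0.05. In edgeR's quasi-likelihood test over 17411 genes the call rate was 0% for genes higher in db/db and 0.00574%, or 1 gene, for genes lower in db/db. At an unadjusted p under 0.05, 4 of 44 members were higher in db/db (9.09%, against 5.12% of all genes tested) and 0 were lower (against 7.84% of all genes tested). DESeq2 and limma-voom also called 0 members. DESeq2 called 1.07% of all genes as higher and 1.1% as lower in db/db, and limma-voom 0.31% and 0.27%. At an unadjusted p under 0.05, 7 members were higher by DESeq2 (against 6.09% of all genes) and 4 by limma-voom (against 7.01%). The log2 fold change, db/db over db/m, was positive for 39 of the 44 members (88.6%, against 47.7% of all genes tested), with a median of 0.24 against -0.02 over all genes. With scaling by library size alone, which moved the median of all genes to -0.13, 34 members were positive and 1 was higher at an unadjusted p under 0.05. The members' median depended on the db/m side: it was 0.12 without db/m replicate 3 and 0.07 when db/m replicates 1 and 3 were both left out. Members called were 0 in both cases, where 0.363% and 0.15% of all genes were called higher and 0.238% and 0.106% lower. At an unadjusted p under 0.05, 6 members were higher without db/m replicate 3 (against 6.84% of all genes) and 0 when both were left out (against 5.63%); 0 were higher when db/db replicate 1 or db/db replicate 2 was left out, and 1 when db/m replicate 1 was. Among the classes the highest median belonged to the immunoproteasome, at 0.51 with all libraries and 0.35 without db/m replicates 1 and 3.

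The counts of many subunits are split between the gene and pseudogenes of similar sequence, which bears on the levels of the genes concerned. With GENCODE M21 transcripts, 39 annotated pseudogenes matched a member at 85% identity or more over at least 0.5 of the pseudogene, and 31 of them had counts. Identity of those with counts ranged from 85.2% (AC102132.2, matched to Psmb1) to 100% (Gm13835, matched to Psma3). These pseudogenes held 215178 counts over the 8 libraries, against 252919 in the members, or 46.0% of the sum. The share in copies was 46.3 ± 0.856% in db/db and 45.7 ± 0.256% in db/m hearts (SD, n = 4 each). A copy was found for 17 members, and for 13 of them more counts lay in copies than in the gene. Psmd2, a scaffold of the 19S base, had 4255 counts, against 53808 in its copies. Psma5, an alpha-ring subunit, had 142 counts, against 9534 in its copies, and Psmb5, which carries the chymotrypsin-like active site, had 2333 against 15034. How reads that match several places were counted is not given in the sources used here, so for these 13 genes neither the level of the gene nor that of a copy is certain.

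**Figure D1:**
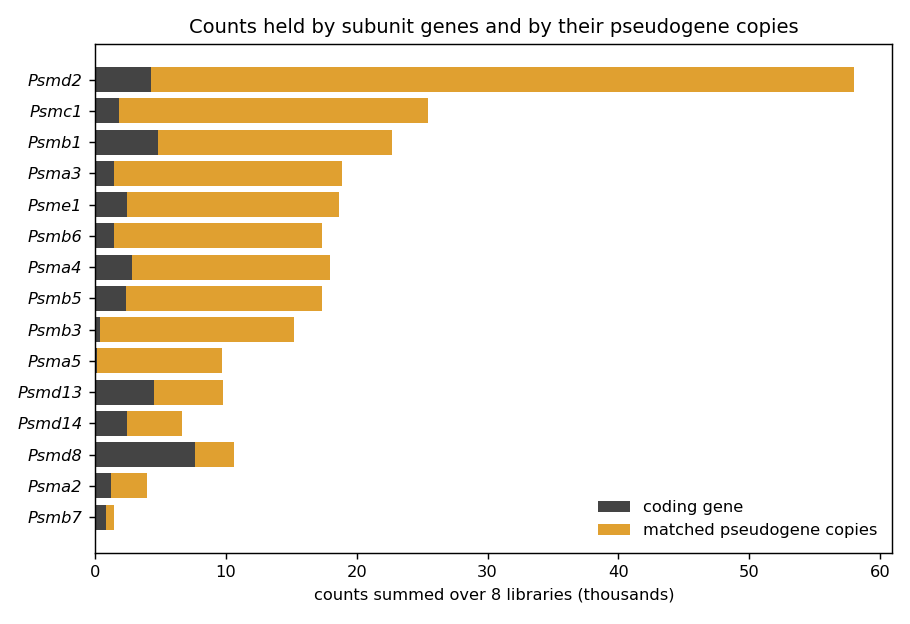
Counts summed over all 8 libraries (horizontal axis, in units of 1000) for each member that has counts in matched pseudogenes; dark bars are the coding gene and yellow bars its copies. Psmd2, with 4255 counts in the gene and 53808 in copies, has the longest bar, and 13 of the 15 members shown have more counts in copies than in the gene.

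The following coding stretches set a gene beside a close copy, for a pair of coding genes and 3 pairs of gene and pseudogene taken as examples. Other copies with counts were less alike, with identity down to 85.2%. Each is 100 bases of the sense strand from GENCODE M21, 50 of them before an exon junction of the multi-exon gene, and the capitals mark bases that differ between the pair. The genes lie on chromosomes 14 (Psme2 and Psmb5), 3 (Psma5) and 16 (Psmd2). The copies Psme2b on chromosome 11, Gm8394 and Gm5422 on chromosome 10 and Gm3375 on chromosome 7 have 1 exon and run through the junction without an intron. Over the aligned coding sequence, identity was 99.3% for Psme2 and Psme2b, 98.9% for Psma5 and Gm8394, 99.0% for Psmb5 and Gm3375 and 96.7% for Psmd2 and Gm5422.
Psme2: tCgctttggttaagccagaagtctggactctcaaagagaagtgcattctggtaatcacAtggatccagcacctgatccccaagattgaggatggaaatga
Psme2b: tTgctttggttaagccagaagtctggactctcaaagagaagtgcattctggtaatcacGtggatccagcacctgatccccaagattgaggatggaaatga
Psma5: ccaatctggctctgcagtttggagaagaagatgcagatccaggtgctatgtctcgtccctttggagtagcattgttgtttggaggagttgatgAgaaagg
Gm8394: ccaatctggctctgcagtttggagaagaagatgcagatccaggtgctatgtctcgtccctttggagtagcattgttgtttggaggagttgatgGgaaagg
Psmb5: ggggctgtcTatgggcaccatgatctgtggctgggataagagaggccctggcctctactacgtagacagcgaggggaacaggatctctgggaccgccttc
Gm3375: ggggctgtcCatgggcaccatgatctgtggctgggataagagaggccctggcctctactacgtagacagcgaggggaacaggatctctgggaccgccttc
Psmd2: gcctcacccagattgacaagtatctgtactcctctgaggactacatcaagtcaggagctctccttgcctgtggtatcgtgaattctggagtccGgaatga
Gm5422: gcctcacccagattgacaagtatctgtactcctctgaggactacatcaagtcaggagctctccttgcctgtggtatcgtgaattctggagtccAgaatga
Within these windows the first pair differs at 2 bases and each other pair at 1 base.

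Levels per kilobase of exon differed between subunits with and without counts in copies. Among the subunits of the 20S core and the 19S particle, Psma8 left out as the testis form, the 17 with no counts in copies had a median of 15.6 CPM per kb, from 6.38 to 39.3. The 14 with counts in copies had a median of 5.36 CPM per kb, from 0.651 to 15.5. With the counts of the copies added, the median of those 14 became 34.7 CPM per kb, from 2.48 to 116, above that of the 17. The exon length of the gene itself was used for this. A level per kb divides by all exon bases annotated for a gene, so it also depends on the annotation. The cause of the difference between the sets was not tested. Within the alpha ring, for example, Psma6 stood at 39.3 CPM per kb and Psma5 at 0.651 as counted, or 44.02 with its copies.

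In db/m replicate 3 most proteasome genes were low. This library was the lowest of the 8 libraries for 35 of the 44 members (79.5%, against 32.1% of all genes tested) and the highest for 1, Psmd1 (2.27%, against 31.7% of all genes tested). On the log2 scale, of CPM with 0.5 added and relative to each gene's mean over the 8 libraries, the median member stood at -0.57 in that library and between -0.05 and 0.26 in the other 7, highest in db/db replicate 2. Summed over members, the level was 1610 ± 80.6 CPM in db/db and 1407 ± 203 CPM in db/m hearts (SD, n = 4 each), with db/m replicate 3 at 1112 CPM. The same library was low in genes with few annotated exon bases. Its median deviation was -0.41 over the 4699 genes with under 2000 exon bases and 0.25 over the 7978 with over 4000. Among members it was -0.66 for the 13 with under 2000 and -0.51 for the 9 with over 4000. Those 9 ran from -1.28 for Psmd9 to 0.49 for Psmd1. Exon bases are those annotated for the whole gene and not the length of a single transcript. A trend with transcript length was not tested.

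**Figure D2:**
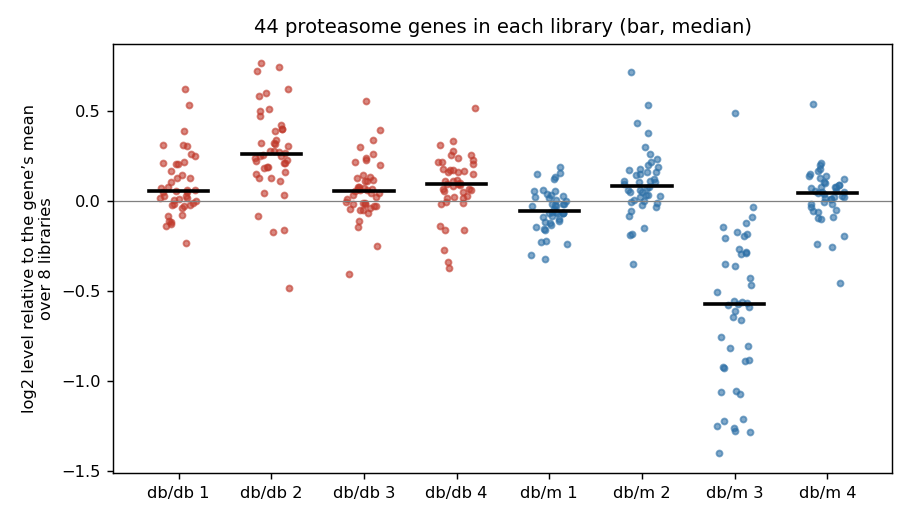
Log2 level of each of the 44 tested proteasome genes relative to its own mean over the 8 libraries (vertical axis), by library, with db/db left and db/m right; each point is a gene and the bar is the median. The median is -0.57 in db/m replicate 3 and between -0.05 and 0.26 in the other libraries.

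Markers of other tissue were high in the same libraries. The summed level of 7 adipocyte markers was 24.4 to 37.1 CPM in db/db and 25.9 to 857 CPM in db/m hearts, with 264 CPM in db/m replicate 1 and 857 CPM in db/m replicate 3, and Ucp1 and Retn were at 0 in all db/db libraries. The summed level of 6 atrial markers was 24.9 to 118 CPM in db/db and 16.0 to 3887 CPM in db/m hearts, again highest in db/m replicates 1 and 3, at 1632 and 3887 CPM. Bmp10 held most of the sum in db/m replicate 3, with 74283 counts against 2334 in db/m replicate 1. Sln, Myl4, Myl7 and Nppa had more counts in db/m replicate 1, and Mybphl had 1331 there and 1385 in db/m replicate 3. Sln was at 0 in all db/db libraries. Of the adipocyte and atrial markers, 5 of 7 and 5 of 6 had counts in db/db, and all had counts in db/m. Their part in the results on proteasome genes was not tested. All 6 cardiomyocyte markers had counts, with sums of 26554 to 33152 CPM in db/db and 26630.5 to 31328 CPM in db/m hearts. Within that list db/m replicate 3 was the lowest of 8 for Myl2, Actc1, Tnni3 and Tnnt2, with 2827, 91786, 10089 and 11814 counts, and the highest for Myh6 and Ryr2, with 495142 and 35250 counts. Library totals were 19541757 to 22249911 counts, of which members held 0.123% to 0.169%.

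The alpha ring opens and closes the channel into the core. Psma6, an alpha subunit with no counts in copies, had 52.9, 60.5, 50.5 and 54.1 CPM in db/db replicates 1 to 4, against 45.7, 48.5, 31.1 and 44.9 CPM in db/m replicates 1 to 4. All 4 db/db hearts stood above all 4 db/m hearts, and db/m replicate 3 was lowest. The log2 fold change of Psma6 was 0.36 (SE 0.15, edgeR adjusted p = 0.370), and it was 0.22 without db/m replicates 1 and 3. Psma2 had 6.84, 9.90, 6.31 and 8.75 CPM in the db/db hearts and 7.17, 6.58, 5.50 and 4.84 CPM in the db/m hearts, with a log2 fold change of 0.40 (SE 0.21, edgeR adjusted p = 0.436). The groups overlapped, and 70.7% of the counts of Psma2 and its copies together lay in the copies. Psma7 had 45.8, 52.4, 41.7 and 44.8 CPM in the db/db hearts and 41.1, 44.2, 28.1 and 41.4 CPM in the db/m hearts, a log2 fold change of 0.26 (SE 0.16, edgeR adjusted p = 0.479). Here too the groups overlapped and db/m replicate 3 was lowest; without it the log2 fold change of Psma7 was 0.13. Groups that did not overlap, with all db/db libraries above, were found for 6 of 44 members (13.6%, against 5.04% of all genes tested), and 0 members had all db/db libraries below (against 4.61%).

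The remaining alpha subunits had values within the spread. Psma1, Psma4 and Psma5 had log2 fold changes of 0.23, 0.36 and 0.49, and Psma3 of -0.00072. Without db/m replicate 3 those of Psma1, Psma4 and Psma5 were 0.01, 0.11 and 0.20. For Psma3 the copies held 92.2% of the counts, and with them added the log2 fold change became 0.24. Psma8, the alpha subunit of the testis proteasome, had 103 counts over the 8 libraries and the lowest level of the class, 0.250 CPM per kb. Of 4 male germ cell markers, Sycp3 had 2 to 16 counts per library, Ddx4 0 to 4 and Prm1 0 to 1, and Prm2 was at 0 in all. Psma6 had the highest level of the class per kb.

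The structural beta subunits hold the inner rings together without an active site. Psmb2 had 48.2, 46.0, 47.7 and 48.6 CPM in db/db replicates 1 to 4, against 37.2, 40.7, 26.02 and 42.3 CPM in db/m replicates 1 to 4, a further gene whose groups did not overlap. Its log2 fold change was 0.38 (SE 0.15, edgeR adjusted p = 0.353). With db/m replicates 1 and 3 left out it was 0.19. Psmb1 had 34.2, 41.9, 34.9 and 28.0 CPM in the db/db hearts and 25.3, 29.0, 11.2 and 27.6 CPM in the db/m hearts. That was the largest log2 fold change of the class, 0.58 (SE 0.27, edgeR adjusted p = 0.395), but the groups overlapped, and with the counts of the copies added it was 0.41; without db/m replicate 3 it was 0.35. Psmb4 had 71.3, 84.4, 73.2 and 78.5 CPM in the db/db hearts and 70.1, 70.3, 31.8 and 77.5 CPM in the db/m hearts. Of the other db/m hearts, db/m replicates 1 and 2 lay just below the db/db range and db/m replicate 4 within it, and the log2 fold change was 0.30 (SE 0.24, edgeR adjusted p = 0.570), or 0.05 without db/m replicates 1 and 3. Psmb4 had the highest level of the class, 35.7 CPM per kb, and Psmb3 the lowest, 0.884, which became 39.7 with its copies. For Psmb3 the log2 fold change was 0.42, or 0.19 without db/m replicate 3.

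No difference beyond the spread was found for the constitutive catalytic subunits. Psmb5 (ENSMUSG00000022193, chr14:54614119-54618022, minus strand, mm10) had 13.8, 17.4, 19.5 and 11.8 CPM in db/db replicates 1 to 4, against 12.5, 17.8, 4.63 and 14.3 CPM in db/m replicates 1 to 4. Its log2 fold change was 0.35 (SE 0.35, edgeR adjusted p = 0.644) with all libraries and -0.05 without db/m replicates 1 and 3. Psmb6, the caspase-like subunit, had 6.89, 10.98, 10.9 and 8.80 CPM in the db/db hearts and 8.97, 10.8, 3.23 and 8.45 CPM in the db/m hearts, a log2 fold change of 0.26 (SE 0.33, edgeR adjusted p = 0.718). Psmb7, the trypsin-like subunit, had 4.95, 6.01, 5.99 and 4.43 CPM in the db/db hearts and 5.54, 6.28, 2.65 and 5.22 CPM in the db/m hearts, a log2 fold change of 0.12 (SE 0.27, edgeR adjusted p = 0.843). In all 3 genes db/m replicate 3 was the lowest of 8 and the other db/m hearts lay within or near the db/db range. Without db/m replicates 1 and 3 the log2 fold changes of Psmb6 and Psmb7 were -0.04 and -0.11, so that 0 of the 3 was positive. The class median was 0.26 with all libraries and -0.05 without both. Psmb5 had the highest level of the class, 15.5 CPM per kb, and Psmb7 the lowest, 1.501, or 116 and 2.48 with their copies.

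The immunoproteasome subunits had the highest class median in favour of db/db hearts, with db/db replicates 1 and 2 the highest libraries for all 3 genes. Psmb9 (ENSMUSG00000096727, chr17:34181987-34187764, minus strand, mm10) replaces Psmb6 in the immunoproteasome and had 15.1, 16.7, 10.5 and 8.54 CPM in db/db replicates 1 to 4, against 8.13, 7.41, 4.96 and 10.3 CPM in db/m replicates 1 to 4. The 3 highest values were those of db/db replicates 1, 2 and 3, while db/db replicate 4 lay within the db/m range. Its log2 fold change was 0.72 (SE 0.27, edgeR adjusted p = 0.337), with the smallest unadjusted p of all members, 0.0236. Psmb8 (ENSMUSG00000024338, chr17:34197721-34201454, plus strand, mm10) replaces Psmb5 and had 17.7, 22.8, 14.6 and 10.5 CPM in the db/db hearts and 11.4, 11.8, 8.93 and 13.9 CPM in the db/m hearts. Here db/db replicate 4 was lower than 3 of the 4 db/m hearts, and the log2 fold change was 0.51 (SE 0.24, edgeR adjusted p = 0.396). Psmb10 (ENSMUSG00000031897, chr8:105935735-105938444, minus strand, mm10) replaces Psmb7 and had 29.3, 37.7, 25.3 and 26.3 CPM in the db/db hearts and 24.1, 24.8, 9.93 and 27.6 CPM in the db/m hearts. The groups overlapped and db/m replicate 3 was far below the rest, and the log2 fold change was 0.46 (SE 0.28, edgeR adjusted p = 0.481). Without db/m replicates 1 and 3 the log2 fold changes were 0.52 for Psmb9, 0.35 for Psmb8 and 0.17 for Psmb10. Psmb10 had the highest level of the 3, 15.03 CPM per kb, against 4.13 for Psmb8 and 2.79 for Psmb9. Their annotated exon bases differ, at 1705 for Psmb10, 3381 for Psmb8 and 3660 for Psmb9. Leaving out each library in turn gave log2 fold changes of 0.57 to 0.91 for Psmb9, 0.31 to 0.68 for Psmb8 and 0.22 to 0.61 for Psmb10. None of the 3 had counts in pseudogene copies. Psmb9 shares 212 exon bases, 5.8% of its exons, with Tap1 on the opposite strand, and since the strand setting is not given in the sources used here, reads there cannot be assigned to either gene. Exon bases shared with another annotated gene were found for 14 members, among them Psmb8. It shares 14.7% of its exon bases with Gm20496, on the opposite strand, which had 0 counts. Other partners on the opposite strand had counts. Psmb7, with 861 counts, shares 11.8% with Nek6, which had 1895. Psmd13 shares 10.1% with Sirt3 and Psmc3ip 21.2% with Mlx.

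**Figure D3:**
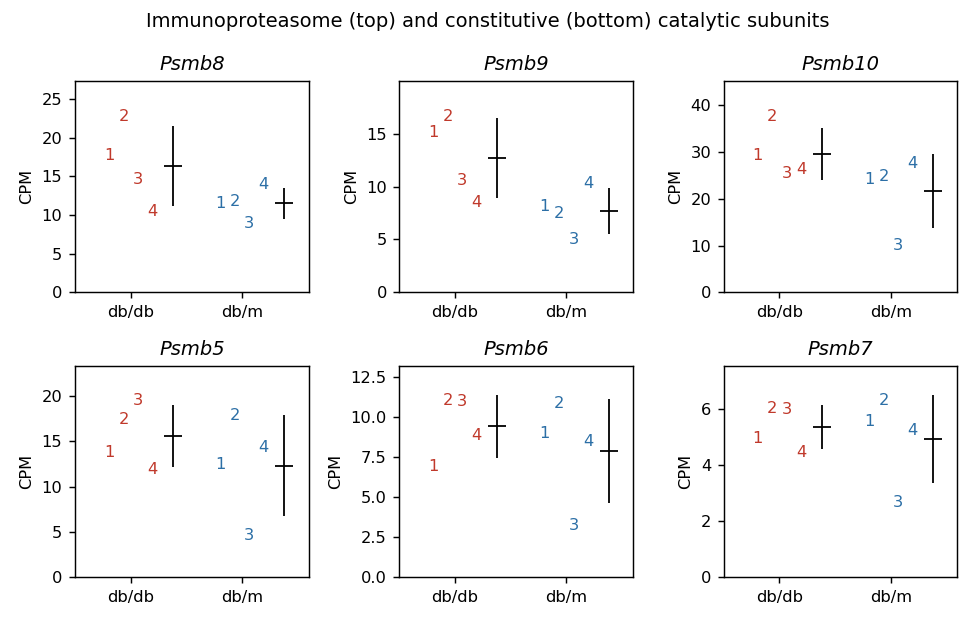
CPM of the immunoproteasome (top) and constitutive (bottom) catalytic subunits, db/db left and db/m right in each panel; each digit is the library of that replicate number and the black bar is the mean with its SD (n = 4). Replicates 1 and 2 lead the db/db group for Psmb8 and Psmb9, and replicate 3 is the lowest db/m heart in all 6 panels.

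Each immunoproteasome subunit was also set against the constitutive subunit whose place it takes, in 3 pairs. The measure was the log2 ratio of their raw counts in a library, with 0.5 added to both. Psmb9 to Psmb6 was 0.41 ± 0.57 in db/db and 0.05 ± 0.50 in db/m hearts (SD, n = 4 each; exact two-sided permutation p = 0.371, 0.557 after Benjamini-Hochberg adjustment over the 3 pairs). Psmb10 to Psmb7 was 2.46 ± 0.26 in db/db and 2.10 ± 0.22 in db/m hearts, a difference of 0.36 (exact permutation p = 0.0857, adjusted 0.257). Psmb8 to Psmb5 was 0.04 ± 0.40 in db/db and 0.04 ± 0.65 in db/m hearts (exact permutation p = 1, adjusted 1). The smallest p that 4 against 4 libraries can give is 0.0286. No ratio differed beyond the spread, and the difference for Psmb8 to Psmb5 was 0.30 without db/m replicate 3. With the counts of the copies added to the constitutive genes, the differences were 0.44 for Psmb9 to Psmb6, 0.28 for Psmb10 to Psmb7 and 0.03 for Psmb8 to Psmb5, with exact permutation p-values of 0.143, 0.114 and 0.886 (adjusted 0.214, 0.214 and 0.886).

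The start region of Psmb9 is shown because this gene had the largest log2 fold change of all members and shares the region with Tap1. It is the RefSeq window of 300 bases around the start, GRCm38.p6, 5′ to 3′ on the strand of the gene: chr17:34187281-34187580, minus strand. The capitals mark GGGCGG, a GC box, and ATTGG, the reverse strand of a CCAAT box.
Psmb9: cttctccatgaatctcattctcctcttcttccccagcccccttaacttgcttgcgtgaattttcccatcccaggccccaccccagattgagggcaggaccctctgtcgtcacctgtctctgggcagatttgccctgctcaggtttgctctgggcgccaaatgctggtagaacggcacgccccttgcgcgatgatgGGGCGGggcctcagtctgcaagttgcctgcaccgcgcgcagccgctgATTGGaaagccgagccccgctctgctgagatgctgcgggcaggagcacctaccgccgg
The Psmb9 window shares 275 bases, chr17:34187306-34187580, with the window of Tap1, which is transcribed the other way. Windows were matched for 38 members, and both strands were searched. TGACNNNGC, the core of sites bound by NRF1, was in 6 of them (15.8%, against 14.0% of the windows of 27025 genes), namely Psmb5, Psmb6, Psmc6, Psmd12, Psmd9 and Psme4. CCAAT was in 15 (39.5% against 41.1%) and GGGCGG in 22 (57.9% against 38.2%). A match is a description of the letters and no evidence of binding.

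The ATPases of the 19S base unfold substrates. Psmc1 had 12.4, 15.4, 11.1 and 11.4 CPM in db/db replicates 1 to 4, against 8.40, 10.9, 6.99 and 10.4 CPM in db/m replicates 1 to 4. All db/db hearts stood above all db/m hearts, and the log2 fold change was 0.46 (SE 0.19, edgeR adjusted p = 0.364). With the counts of its copies, which held 92.9% of the sum, it was 0.14. Psmc5 had 36.7, 41.1, 37.0 and 39.8 CPM in the db/db hearts and 32.5, 38.3, 23.4 and 37.95 CPM in the db/m hearts, a log2 fold change of 0.23 (SE 0.16, edgeR adjusted p = 0.533). Psmc2 had 29.3, 37.9, 32.01 and 36.9 CPM in the db/db hearts and 29.5, 35.8, 21.4 and 34.1 CPM in the db/m hearts, a log2 fold change of 0.17 (SE 0.17, edgeR adjusted p = 0.645). Without db/m replicates 1 and 3 these became 0.01 for Psmc5 and -0.04 for Psmc2, where 4 of the 6 ATPases were positive and the class median was 0.02, against 0.16 with all. The log2 fold changes of Psmc3, Psmc4 and Psmc6 were 0.10, 0.14 and 0.16, or 0.07, -0.07 and 0.01 without db/m replicate 3. In all 6 ATPases db/m replicate 3 was the lowest library. Psmc3 had the highest level of the class, 27.0 CPM per kb, and Psmc1 the lowest, 5.62, or 78.2 with its copies.

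The other base subunits bind ubiquitin, shuttle factors and the lid. Psmd2 had 25.3, 29.3, 26.5 and 28.5 CPM in the db/db hearts and 20.4, 25.4, 20.9 and 26.7 CPM in the db/m hearts, a log2 fold change of 0.23 (SE 0.13, edgeR adjusted p = 0.456), or 0.08 with its copies. Psmd4, a ubiquitin receptor, had 36.6, 43.6, 35.2 and 39.3 CPM in the db/db hearts and 34.2, 35.5, 32.2 and 35.1 CPM in the db/m hearts, a log2 fold change of 0.18 (SE 0.11, edgeR adjusted p = 0.494). Psmd1, a scaffold and the docking site of the ubiquitin receptor Adrm1, had 66.1, 66.9, 64.1 and 65.6 CPM in the db/db hearts and 54.8, 58.2, 91.3 and 56.6 CPM in the db/m hearts. Psmd1 was the single member for which db/m replicate 3 was the highest of 8, and its log2 fold change was 0.01 (SE 0.17, edgeR adjusted p = 0.984), or 0.22 without that library. The 7265 exon bases of Psmd1 include 252 shared with Htr2b and 301 shared with Gm21972, which had 0 counts. Psmd4 had the highest level of the class, 12.98 CPM per kb, and Psmd2 the lowest, 6.29, or 85.4 with its copies.

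The lid removes ubiquitin through the deubiquitinase Psmd14. Psmd8 had 50.3, 54.4, 53.9 and 49.8 CPM in the db/db hearts and 44.4, 50.2, 26.3 and 37.4 CPM in the db/m hearts, and the log2 fold change was 0.40 (SE 0.18, edgeR adjusted p = 0.392). Psmd11, a lid subunit whose level limits the number of assembled proteasomes in human pluripotent stem cells, had 53.7, 58.2, 51.5 and 53.6 CPM in the db/db hearts and 43.0, 46.2, 24.2 and 51.2 CPM in the db/m hearts. Its groups did not overlap, and the log2 fold change was 0.40 (SE 0.20, edgeR adjusted p = 0.423), or 0.15 without db/m replicates 1 and 3. Psmd7, the inactive partner of Psmd14, had 84.0, 110.3, 84.2 and 92.0 CPM in the db/db hearts and 75.1, 85.7, 55.0 and 82.0 CPM in the db/m hearts, a log2 fold change of 0.32 (SE 0.16, edgeR adjusted p = 0.425). The groups overlapped for both Psmd8 and Psmd7, and without db/m replicate 3 their log2 fold changes were 0.25 and 0.20. Psmd14 itself had 15.4 ± 1.40 CPM in db/db and 13.3 ± 1.90 CPM in db/m hearts (SD, n = 4 each), a log2 fold change of 0.22, or 0.12 without db/m replicate 3. Psmd3, Psmd6, Psmd12 and Psmd13 had log2 fold changes of 0.23, 0.03, 0.18 and 0.24, or 0.12, -0.05, 0.10 and 0.14 without that library. All 8 lid genes had positive values with all libraries, except for Psmd6 with scaling by library size alone or with limma-voom, and 7 had them without db/m replicates 1 and 3, where the class median was 0.09 against 0.23 with all. In all 8, db/m replicate 3 was the lowest library. Psmd7 had the highest level of the class, 36.9 CPM per kb, and Psmd14 the lowest, 5.09, or 14.0 with its copy. With copies added, Psmd11 was the lowest, at 7.47 CPM per kb. The copy of Psmd14 held 63.7% of the counts of both, and with it added the log2 fold change of Psmd14 was 0.17.

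**Figure D4:**
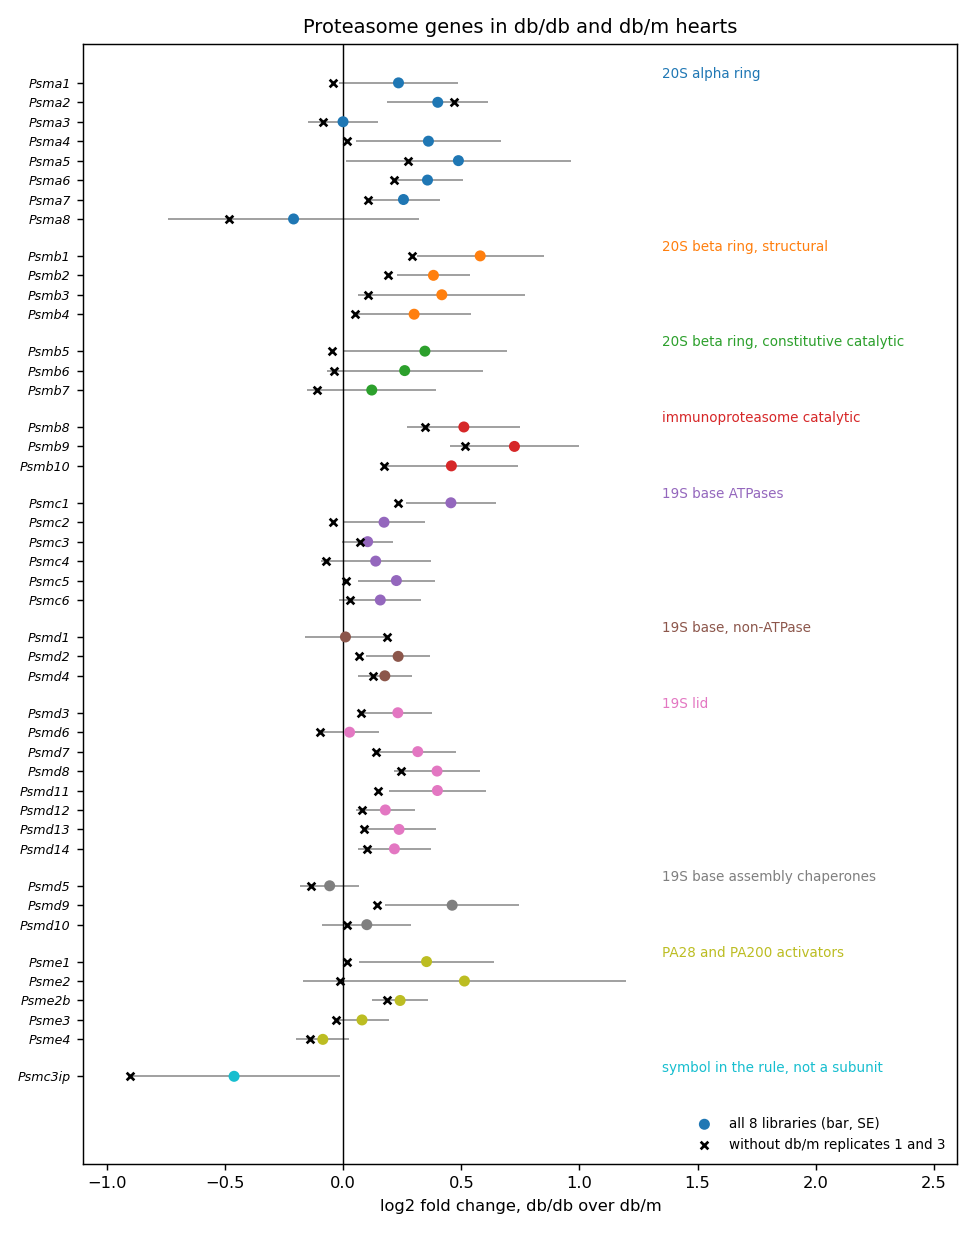
Log2 fold change, db/db over db/m (horizontal axis), of the 44 tested members by class; coloured points use all 8 libraries with SE bars, and crosses leave out db/m replicates 1 and 3. Of the coloured points 39 lie above 0, of the crosses 30, and no member passed an adjusted p of 0.05.

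The chaperones Psmd5, Psmd9 and Psmd10 hold parts of the 19S base during assembly and leave the finished particle. Psmd9 had 14.5, 14.2, 13.8 and 14.2 CPM in the db/db hearts and 11.2, 13.3, 4.51 and 12.3 CPM in the db/m hearts, without overlap of the groups, and its log2 fold change was 0.46 (SE 0.28, edgeR adjusted p = 0.479). Without db/m replicates 1 and 3 it was 0.14. Of its exon bases 25.5% are shared with Gm26745, an annotated gene on the opposite strand that had 0 counts. Psmd10 had 9.26, 9.76, 7.74 and 6.51 CPM in the db/db hearts and 8.22, 8.74, 6.45 and 7.65 CPM in the db/m hearts, a log2 fold change of 0.10 (SE 0.19, edgeR adjusted p = 0.806). Psmd5 had 18.95, 19.7, 20.7 and 22.7 CPM in the db/db hearts and 21.3, 23.3, 19.1 and 21.6 CPM in the db/m hearts, a log2 fold change of -0.06 (SE 0.13, edgeR adjusted p = 0.837). Psmd10 and Psmd5 differed by less than the spread, and Psmd10 had 0.03 without db/m replicate 3. Psmd10 had the highest level of the class, 5.47 CPM per kb, and Psmd9 the lowest, 1.69.

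The activators open the core without the 19S particle. Psme1 and Psme2 form the interferon-inducible PA28 alpha-beta ring, Psme3 forms a nuclear ring of its own, and Psme4 encodes PA200. For PA28 beta the counts lay in Psme2b (ENSMUSG00000078153, chr11:48945354-48946190, minus strand, mm10), an intronless coding copy with 9911 counts over the 8 libraries, against 115 in Psme2 (ENSMUSG00000079197, chr14:55587441-55591113, minus strand, mm10). As the stretches of Psme2 and Psme2b printed above show, reads could match either, so neither gene alone gives the level of PA28 beta. Psme2b had 59.3, 66.6, 68.3 and 61.4 CPM in the db/db hearts and 58.7, 55.4, 45.9 and 56.3 CPM in the db/m hearts, without overlap of the groups and with a log2 fold change of 0.24 (SE 0.12, edgeR adjusted p = 0.418). Psme1 had 17.7, 17.1, 13.9 and 17.7 CPM in the db/db hearts and 13.5, 16.2, 5.83 and 16.4 CPM in the db/m hearts. All db/m hearts but db/m replicate 3 lay near the db/db values, and the log2 fold change was 0.35 (SE 0.28, edgeR adjusted p = 0.575), or 0.02 without db/m replicates 1 and 3. Psme4 had 197, 186, 218 and 207 CPM in the db/db hearts and 211, 224, 203 and 219.9 CPM in the db/m hearts, a log2 fold change of -0.09 (SE 0.11, edgeR adjusted p = 0.726). Per kb of exon Psme4 stood at 24.8 CPM, against 70.5 for Psme2b, the highest of the class, and 0.392 for Psme2, the lowest. Psme3 had a log2 fold change of 0.08 and Psme2 of 0.51, or 0.05 and 0.12 without db/m replicate 3. Psmc3ip, the member that is no subunit, had 0.808, 0.563, 0.645 and 0.427 CPM in the db/db hearts and 0.572, 1.47, 0.538 and 0.807 CPM in the db/m hearts, a log2 fold change of -0.46 (SE 0.45, edgeR adjusted p = 0.632).

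Of 48 further genes of the pathway in 6 lists, 47 were tested and 0 passed the adjusted threshold in the edgeR test of all 8 libraries. At an unadjusted p under 0.05, 8 were higher and 1 was lower in db/db, and 33 log2 fold changes were positive; of all genes tested 5.12% were higher, 7.84% lower and 47.7% positive. The 5 chaperones of 20S assembly had a median log2 fold change of 0.29 (0.14 without db/m replicate 3), with 1 gene at an unadjusted p under 0.05. That gene, Psmg4, had 7.65, 7.55, 5.85 and 5.28 CPM in the db/db hearts and 4.75, 3.83, 1.53 and 3.37 CPM in the db/m hearts, a log2 fold change of 0.97 (SE 0.32, edgeR adjusted p = 0.299). For Psmg4 it was 0.73 without db/m replicate 3 and 0.86 without db/m replicates 1 and 3. Psmg1 and Pomp, the chaperone of the maturing core, had 0.29 and 0.51, or 0.14 and 0.21 without db/m replicate 3. A pseudogene copy of Pomp held 5497 counts, against 4405 in the gene. Of the 19S subunits outside the symbol rule, Adrm1 had 0.08 and Sem1 0.30, which turned to -0.16 and -0.01 without that library. The 9 associated regulators tested had a median of 0.15, or 0.05 with db/m replicate 3 left out, and 0 genes at an unadjusted p under 0.05; the deubiquitinase Usp14 had 0.26, the zinc-finger activator Zfand5 0.23 and the scaffold Ecpas -0.25, or -0.08 for Ecpas without db/m replicate 3. Paaf1 was not analysed here.

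The transcription factor Nfe2l1, known as NRF1, drives proteasome genes when proteasome activity falls. Nfe2l1 had 939.6, 968, 819.6 and 1039 CPM in the db/db hearts and 742, 839.6, 908 and 855 CPM in the db/m hearts, a log2 fold change of 0.17 (SE 0.14, edgeR adjusted p = 0.573). The groups overlapped. Nfe2l2 and the protease Ddi2, which cuts NRF1 into its active form, had log2 fold changes of 0.20 and -0.11, with 0.05 for Ddi2 without db/m replicate 3, and the 4 genes of this list a median of 0.07. Of the 16 genes for ubiquitin, its activating enzymes and its shuttles, 9 were positive, 4 were higher and 1 was lower at an unadjusted p under 0.05 (of all genes tested 47.7%, 5.12% and 7.84%), and the median was 0.03. The ubiquitin gene Ubb had a log2 fold change of 0.41 (SE 0.13, edgeR adjusted p = 0.296), the ubiquitin fusion gene Rps27a of 0.89 (SE 0.36, edgeR adjusted p = 0.356) and the activating enzyme Uba6 of -0.40 (SE 0.14, edgeR adjusted p = 0.305). Without db/m replicates 1 and 3 these were 0.35, 0.64 and -0.32. Ubb passed the adjusted threshold under an alternative processing, and Rps27a and Uba6 did not. The counts of Ubb and Rps27a are also split, with 48084 counts in copies of Ubb against 115886 in the gene, and 26025 against 440 for Rps27a.

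The MHC class I list is the route that immunoproteasome peptides take to the cell surface, and for the 3 genes named here db/db replicates 1 and 2 were the highest libraries, as they were for Psmb8 and Psmb9. Of its 11 genes 10 were positive and 3 were higher at an unadjusted p under 0.05 (of all genes tested 47.7% and 5.12%), and the median log2 fold change was 0.47, or 0.33 without db/m replicates 1 and 3. H2-K1, a class I heavy chain, had 402, 446, 273 and 257 CPM in db/db replicates 1 to 4, against 211, 175, 193 and 285 CPM in db/m replicates 1 to 4. Its db/db replicates 1 and 2 stood above all db/m hearts while replicates 3 and 4 did not, and the log2 fold change was 0.67 (SE 0.22, edgeR adjusted p = 0.298). Tap1, part of the peptide transporter, had 55.4, 29.9, 21.3 and 18.9 CPM in the db/db hearts and 9.76, 12.8, 23.6 and 19.7 CPM in the db/m hearts, with db/db replicate 1 far above the rest and a log2 fold change of 0.93 (SE 0.37, edgeR adjusted p = 0.352). Irf1, the interferon-induced factor that drives immunoproteasome genes, had 37.3, 50.5, 33.4 and 26.2 CPM in the db/db hearts and 20.8, 25.2, 13.3 and 32.6 CPM in the db/m hearts, a log2 fold change of 0.68 (SE 0.28, edgeR adjusted p = 0.352). The groups overlapped for all 3. Leukocytes carry the immunoproteasome as their standing form, and the summed level of 9 leukocyte markers, all with counts in both groups, was 47.9 to 169.5 CPM in db/db and 119 to 173 CPM in db/m hearts. In db/db replicates 1 and 2, which lead in Psmb8 and Psmb9, the leukocyte sum was 92.7 and 125.1 CPM. The macrophage gene Csf1r held most of these counts. Single markers went different ways. Cd8a had 21, 35, 50 and 22 counts in the db/db hearts, above all db/m hearts, with 4, 18, 16 and 18 counts. Cd79a had 7, 2, 7 and 9 counts in the db/db hearts, below all db/m hearts, with 20, 17, 12 and 18 counts. For Cd3e the groups overlapped, with 6, 9, 36 and 9 counts against 17, 8, 6 and 11. Of all genes tested, 5.04% had all db/db libraries above and 4.61% all below. The part of leukocytes in the result was not tested.

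**Figure D5:**
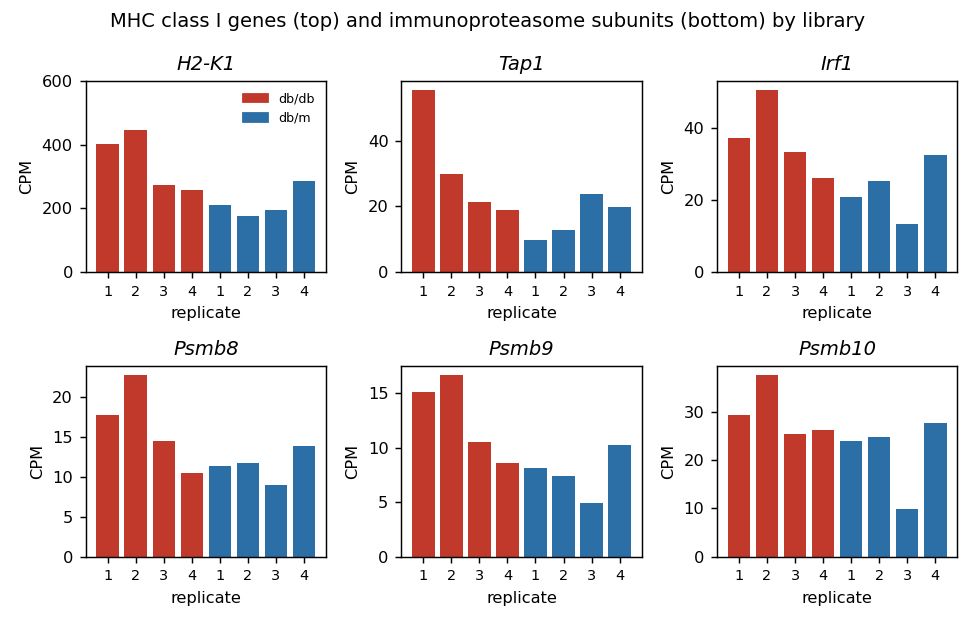
CPM by library of 3 MHC class I route genes (top) and the 3 immunoproteasome subunits (bottom), db/db replicates 1 to 4 left and db/m replicates 1 to 4 right in each panel. The db/db bars of replicates 1 and 2 are above every db/m bar in each panel. The db/db bar of replicate 4 is within the db/m range in each panel.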

How the data were processed

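Libraries were made from heart total RNA with the NEBNext Ultra kit, according to the labels' protocols. The authors deposited raw counts for each Ensembl gene ID, per the file headers, and the series table equals the 8 sample files. The genome build was mm10, per the submitters' processing notes. Aligner, counter, annotation release, strand setting and the handling of reads matching several places: not given in the sources used here.

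Groups were taken from the genotype label. Of 55573 gene IDs, 55480 matched GENCODE M21 (55304 with the same start and end), which gave symbols, gene types and transcripts. Genes were kept by edgeR's filterByExpr (minimum count 10, minimum total 15), scaled by TMM and tested across all genes with edgeR's quasi-likelihood test (edgeR 4.0.16, R 4.3.3; db/db against db/m, all 8 libraries, no covariate, Benjamini-Hochberg adjustment, threshold 0.05). CPM are counts per 1000000 of TMM-scaled library size. Pseudogene transcripts were matched to members with BLAST 2.17.0; the 85% identity minimum was set after seeing the matches. Ratios used exact two-sided permutation tests in SciPy 1.17.1. Sequences came from GENCODE M21 and RefSeq (GRCm38.p6).

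Alternatives were other scalings, filters, DESeq2 1.42.0, limma-voom (limma 3.58.1) with quality weights, the replicate number as a block, libraries left out and copies added; adding Psme2 and Psme2b together was chosen after seeing the data. Scripts were tested on simulated data. No replicate pair agreed within sampling noise. The members, lists and tests were chosen with earlier results of these data known. Values in every library are given for the catalytic subunits and, per class, for up to 3 members with the smallest p, and of each pathway list up to 3 genes with the smallest p are named. Counting error was not separated from the spread between libraries. It weighs most for Psma5, Psma8, Psmb3, Psme2 and Psmc3ip, which had under 400 counts in all. For other genes with few counts it can be as large as the spread, as for Psma3 with 147 to 197 counts per library.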

Additional observations from a re-analysis of the deposited data

Results flagged for a closer look

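In 7 of 88 groups of 4 values, 1 for each tested member and genotype, the highest or lowest library was set off from the others by a share of the range above Dixon's 95% critical value. Chance flags about 1 in 20 such groups. In 5 of the 7 the library was db/m replicate 3. Its value was low for 4 subunits. Psmc4, a 19S ATPase, had 15.2 CPM there against 32.4 to 33.8 CPM in the other db/m hearts. Psmb4, a structural beta subunit, had 31.8 CPM against 70.1 to 77.5 CPM. The lid subunit Psmd12 had 39.7 CPM against 50.2 to 51.7 CPM, and the lid deubiquitinase Psmd14 had 10.5 CPM against 14.0 to 14.6 CPM. The base scaffold Psmd1 was high in the same library, with 91.3 CPM against 54.8 to 58.2 CPM in the other db/m hearts. The remaining 2 values were low db/db libraries. Psma3 had 7.91 CPM in db/db replicate 1 against 8.92 to 9.02 CPM in the other db/db hearts, and Psme1 had 13.9 CPM in db/db replicate 3 against 17.1 to 17.7 CPM. The Psma3 value rests on 147 counts, where counting error is not small beside the spread. Both Psma3 and Psme1 hold fewer counts than their pseudogene copies.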

How the results depend on the processing

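No member passed an adjusted p of 0.05 under any alternative, in 832 values, of which 33 changed sign. Of the pathway genes, Ubb alone passed it under an alternative. Over all genes the test called 1 gene, against 27 with no filter, 377 with DESeq2 (186 higher and 191 lower in db/db), 101 with limma-voom (54 higher, 47 lower), 5 with the replicate block, 46 without db/m replicates 1 and 3 together (27 higher, 19 lower), and 0 to 106 when libraries were left out in turn, with 106 without db/m replicate 3. The cause was not tested. The median of members was 0.24, and 0.12 to 0.32 when libraries were left out in turn, lowest without db/m replicate 3; it was 0.14 with library size alone, 0.11 with limma-voom and 0.07 without db/m replicates 1 and 3. Scaling by library size alone moved the median of all genes to -0.13.

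Signs changed for 14 members. Psma3, at -0.00072, was 0.0079 with DESeq2, 0.0063 with RLE size factors, 0.020 with no filter and 0.24 with copies added. Library size alone gave -0.12 for Psmd1, -0.0063 for Psmc3, -0.0081 for Psmd10, -0.079 for Psmd6 and -0.030 for Psme3. Limma-voom gave -0.050 for Psmb7, -0.049 for Psmc4 and -0.056 for Psmd6. With db/m replicates 1 and 3 both left out, the values were -0.11 for Psmb7, -0.045 for Psmc2, -0.074 for Psmc4, -0.042 for Psma1, -0.099 for Psmd6, -0.046 for Psmb5, -0.013 for Psme2, -0.039 for Psmb6 and -0.029 for Psme3. With libraries left out in turn the ranges were -0.026 to 0.044 for Psma3, -0.69 to 0.12 for Psma8, -0.053 to 0.091 for Psmd6, -0.058 to 0.22 for Psmd1, -0.081 to 0.26 for Psmb7 and -0.067 to 0.23 for Psmc4. The ratio of Psmb8 to Psmb5, with a difference of -0.0049, was 0.029 with copies added. Libraries of the same number did not deviate together (correlations -0.09, 0.06, 0.03 and 0.02), so the numbers were not taken as pairs; the replicate block gave a members' median of 0.26 and 0 members called.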
